A study of Mus musculus with 6 samples.

Results

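The 5 genes described here code for proteins of the growth cone, the moving tip of a growing axon: Sprr1a, Gap43, Basp1, Marcks and Marcksl1. They were taken by gene symbol, and all 5 were found among the 35485 genes of the tables. RNA from whole retinas of 12-week-old wild type C57BL/6 mice was sequenced 2 days after optic nerve crush (ONC, called NC in the labels) or sham surgery. In ONC the exposed nerve was crushed 2 mm behind the globe for 10 seconds, and in sham surgery it was exposed and not crushed. There were 3 ONC and 3 sham samples, each RNA pooled from 6 retinas of 6 mice, so variation between single mice is not seen. The crushed axons belong to the retinal ganglion cells (RGCs), whose cell bodies remain in the retina.

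Gap43 and Basp1 are acylated proteins of the inner face of the growth cone membrane. Marcks and Marcksl1 are attached there by a myristoyl group and a basic effector domain, which binds acidic lipids and calmodulin and is phosphorylated by protein kinase C. All 4 bind calmodulin and are thought to control the supply of membrane phosphoinositides to the actin skeleton. Sprr1a is of another family, the small proline-rich proteins that are crosslinked into the cornified envelope of squamous epithelium. It is known as a regeneration-associated gene of injured peripheral neurons, where the protein reaches the axons and growth cones.

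Positions are those of the files, and for all 5 genes they equal the RefSeq annotation of GRCm38. Sprr1a lies on chromosome 3 from 92483954 to 92485881 with 790 exon bases in 2 exons. Gap43 lies on chromosome 16 from 42248552 to 42340651 with 1310 exon bases in 3 exons. Basp1 lies on chromosome 15 from 25363277 to 25413764 with 1855 exon bases in 2 exons. Marcks lies on chromosome 10 from 37133243 to 37138926 with 4186 exon bases in 2 exons. Marcksl1 lies on chromosome 4 from 129513581 to 129515981 with 1601 exon bases in 2 exons. In RefSeq, Gap43 holds the microRNA gene Mir6540 within its span.

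The RefSeq promoter table (GRCm38.p6) had entries for 3 of the 5 genes, Sprr1a, Basp1 and Marcksl1. The 250 bases before each start are shown because the promoter of Sprr1a, the gene with the largest rise of the 5, can be set beside those of Basp1 and Marcksl1. Sequences are written 5′ to 3′ on the strand of the gene, and capitals mark matches to TGANTCA, the letters bound by AP-1 (dimers of Jun and Fos family factors).
Sprr1a, chr3:92485882-92486131, minus strand: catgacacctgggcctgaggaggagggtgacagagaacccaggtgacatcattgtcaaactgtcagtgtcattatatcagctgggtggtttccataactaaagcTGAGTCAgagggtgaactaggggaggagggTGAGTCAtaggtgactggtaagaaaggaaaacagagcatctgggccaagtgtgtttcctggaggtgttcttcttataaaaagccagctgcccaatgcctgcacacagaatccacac
Basp1, chr15:25413765-25414014, minus strand: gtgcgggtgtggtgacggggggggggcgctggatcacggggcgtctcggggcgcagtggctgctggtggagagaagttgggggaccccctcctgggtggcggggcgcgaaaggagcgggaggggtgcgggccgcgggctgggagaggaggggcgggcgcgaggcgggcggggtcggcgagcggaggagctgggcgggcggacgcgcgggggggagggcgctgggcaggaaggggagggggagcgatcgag
Marcksl1, chr4:129513331-129513580, plus strand: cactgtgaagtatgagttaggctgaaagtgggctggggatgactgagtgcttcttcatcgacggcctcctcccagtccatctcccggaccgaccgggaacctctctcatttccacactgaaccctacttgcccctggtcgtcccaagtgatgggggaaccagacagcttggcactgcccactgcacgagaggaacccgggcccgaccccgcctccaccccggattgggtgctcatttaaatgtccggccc

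The Sprr1a promoter held TGANTCA at 2 places, starting at -146 and at -116 relative to the start of transcription, and those of Basp1 and Marcksl1 held it at 0 places. Of 32851 RefSeq promoters of this length, 6.75% held it at least once and 0.338% at 2 or more places. These letters read the same on both strands apart from the middle base, so each place was counted once. The letters TATAAA, searched on both strands, stood at -43 in Sprr1a and in neither of the others, and 12.4% of all promoters held them. The motifs did not overlap. GC content was 49.6% in Sprr1a, 78.8% in Basp1 and 60.4% in Marcksl1, against a median of 52.4% over all promoters. The dinucleotide CG occurred 0 times in Sprr1a, 30 times in Basp1 and 12 times in Marcksl1. These are matches of letters, and binding was not measured.

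The levels are RPKM, exon reads normalised to exon length and to all reads on genes, as the authors calculated them for each sample. Exon reads per sample numbered 17343945 to 18349331 in sham and 20019818 to 20358008 in ONC. Exons held 70.9 to 76.6% of the reads on genes in sham and 78.5 to 80.4% in ONC, and RPKM divides by all of these reads. The tissue label was checked by 12 photoreceptor markers, with a summed RPKM of 20200 to 21067 in sham and 22262 to 23685 in ONC. Exon reads were compared by the quasi-likelihood test of edgeR with TMM scaling over the 13670 genes whose mean RPKM exceeded 0.3 in ONC, sham or both. A gene was called at a Benjamini-Hochberg adjusted p under 0.1, and was a differentially expressed gene (DEG) if its fold change was also above 1.5. Over all genes tested, 2.38% were called higher in ONC, 3.72% were called lower, and 0.827% were DEGs higher in ONC. At an unadjusted p under 0.05, 1057 of the 13670 genes were higher and 1229 lower, 16.7% in all. Each pool came from its own mice, and the p-values measure the spread between pools.

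Sprr1a and Gap43 rose after ONC, and Basp1, Marcks and Marcksl1 did not pass the test. Sprr1a went from almost no reads to the level of Marcksl1, while the estimated rise of Gap43 was less than the fold change asked of a DEG. In RPKM, every ONC sample was above every sham sample for 4 of the 5 genes, the exception being Marcks, and for 25.4% of all genes tested.

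Sprr1a had an RPKM of 1.32, 0 and 0.155 in sham samples 1, 2 and 3, and of 11.8, 12.5 and 10.9 in ONC samples 1, 2 and 3. Every ONC sample lay far above every sham sample, and among the sham samples the first stood above the other two. The means were 11.7 ± 0.794 in ONC and 0.492 ± 0.722 in sham (SD, n = 3). Behind them were 236, 245 and 223 exon reads in ONC and 24, 0 and 3 in sham. The count of 0 in sham sample 2 allows up to 3 reads, an RPKM of 0.159, when only counting error is considered. By edgeR, the log2 fold change was 4.47 with a standard error of 0.47, a fold change of 22.2 (95% interval 11.2 to 44.0), with an edgeR adjusted p of 5.06e-06. It was the 8th highest log2 fold change of the 13670 genes.

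The size of the Sprr1a rise rests on sham sample 1, which held 24 of the 27 sham reads. The summed ONC reads were 22.9 times the sham reads at equal exon depth (95% exact interval 15.6 to 34.9, counting error only). Without sham sample 1, they were 138 times the sham reads, with 3 sham reads and an interval of 47.1 to 672. The direction and the call were the same without any one sample.

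**Figure D1:**
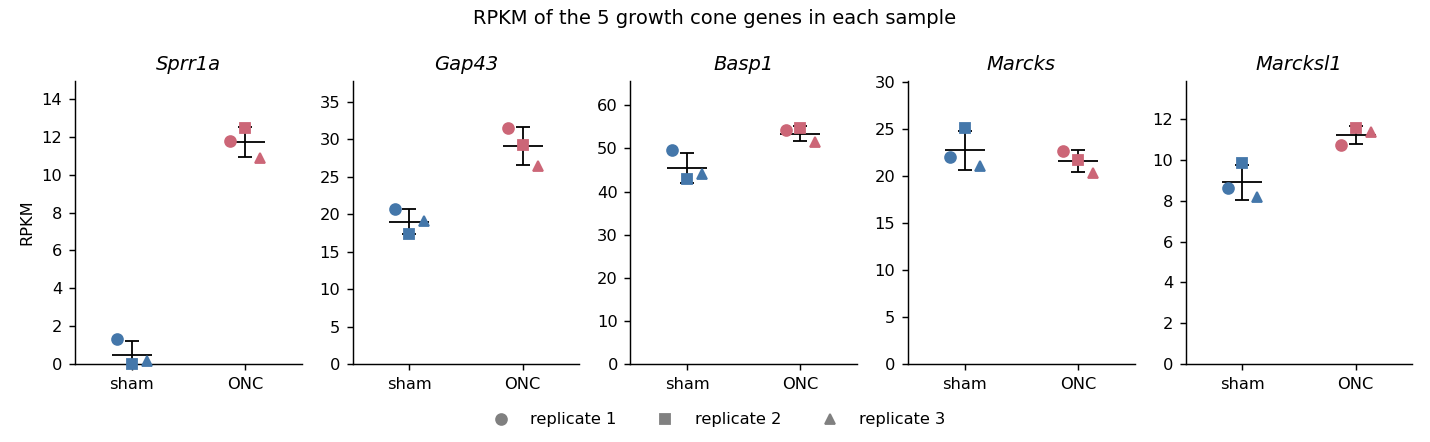
RPKM (y axis, from 0, a separate scale for each gene) of the 5 growth cone genes in the 3 sham (blue) and 3 ONC (red) samples, with marker shapes for the replicate number and the mean and SD in black. Sprr1a, Gap43, Basp1 and Marcksl1 show separate groups with ONC above sham, as do 25.4% of all genes tested. In Marcks the sham and ONC samples overlap.

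Sham sample 1 also stood apart in some other genes, and the first 3 below were picked because they moved with Sprr1a. Mmp12, a macrophage metalloelastase, had 90 exon reads in sham sample 1 against 4 and 14 in the others, and 657 to 779 in ONC. Ecel1, a metalloprotease of injured neurons, had 45 against 18 and 16. The injury-induced transcription factor Atf3 had 224 against 105 and 138. The neuropeptide gene Gal went the other way, with an RPKM of 0.498 in sham sample 1 against 0.776 and 0.584 in the others. Sham sample 1 was the highest of the 3 in 65.5% of the 113 DEGs higher in ONC and in 44.2% of all genes tested.

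Lens markers were also higher in sham sample 1 than in the other sham samples. The summed RPKM of 12 lens markers was 69.7, 8.43 and 13.1 in the sham samples and 72.4, 70.6 and 83.1 in the ONC samples. In lens markers, sham sample 1 was within 1 RPKM of the lowest ONC sample. The Sprr1a RPKM was 1.32 in sham sample 1 and 10.9 or more in each ONC sample. Of 9 lens markers tested, 1 was called higher in ONC, Cryaa (alpha A crystallin, log2 fold change 1.32, edgeR adjusted p 0.0469). At an unadjusted p under 0.05, 6 of the 9 were higher, against 1057 of all 13670 genes tested. Without sham sample 1, edgeR called 7 of the lens markers, and 706 of all genes tested against 833 with every sample. Without ONC sample 1 it called 4, where 2031 of all genes were called. Without sham sample 2, sham sample 3 or ONC sample 3 it called 0, where 371, 400 and 452 of all genes were called. With the replicate number as a block 4 were called, and 728 of all genes. When reads were divided by all reads on genes, 6 were called, and 1730 of all genes. The largest and the smallest log2 fold changes were those of Bfsp1 (1.80, edgeR adjusted p 0.118) and Bfsp2 (0.071, adjusted p 0.961), both for beaded filament proteins of the lens fibre. None of the 12 was at 0 in all samples. The part of lens RNA in the Sprr1a difference was not tested.

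**Figure D2:**
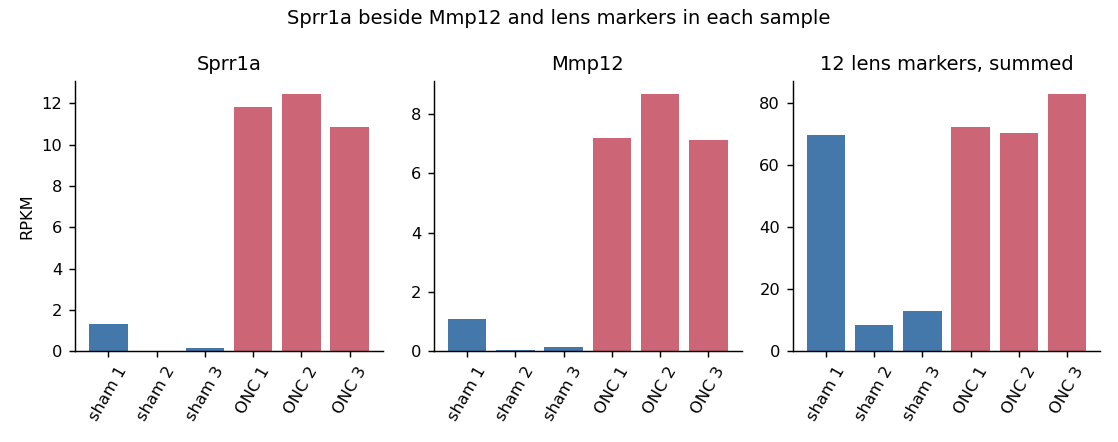
RPKM (y axes, from 0) of Sprr1a, of Mmp12 and of 12 lens markers summed, in each of the 3 sham (blue) and 3 ONC (red) samples. Sham sample 1 is the highest of the sham samples in all 3 panels, at 1.32 for Sprr1a, 1.09 for Mmp12 and 69.7 for the lens markers.

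Sprr1a was not accompanied by its relatives. It lies in a cluster of small proline-rich genes on chromosome 3, and 17 neighbours named Sprr or Ivl (involucrin) in that cluster were in the tables. Of these 17, 13 had no exon read in any of the 6 samples, among them Sprr1b, Sprr3 and Sprr4, the nearest by position. The other 4 held 24 exon reads together, with a highest RPKM of 0.135. Sprr1a reads were unique to the gene in all samples, so reads shared with the paralogs were not counted there. A count of 0 allows up to 3 reads per sample.

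A list of 26 cornified envelope genes is made up mostly of the same Sprr and Ivl genes, so it is not an independent result. The list summed to an RPKM of 0.853 to 1.56 in sham and 0.922 to 1.38 in ONC. Of its genes, 18 were at 0 in all samples, most of them the same Sprr genes. Only Lor (loricrin) passed the filter, with a log2 fold change of 0.085 and an edgeR adjusted p of 0.945. A list of 16 markers of surface epithelium also holds Lor and Ivl. Of the 16, 5 were tested and 0 were called by edgeR, with 0 at an unadjusted p under 0.05. The 16 markers summed to an RPKM of 4.55 to 5.62 in sham and 4.65 to 6.31 in ONC. Log2 fold changes ran from -0.022 for Perp (a desmosomal protein, adjusted p 0.981) to 0.32 for Sfn (stratifin, adjusted p 0.759), and Dsc3 was at 0 in all samples.

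The reads of Sprr1a were spliced. Reads across its single intron numbered 41, 39 and 41 in ONC and 7, 0 and 0 in sham. Tested as exon-exon junction reads, a subset of the exon reads, Sprr1a rose by 3.84 on the log2 scale (standard error 0.74, edgeR adjusted p 0.00223), while 1.14% of genes were called higher in this readout. Summed junction reads in ONC were 15.2 times those in sham at equal exon depth, with an exact interval of 7.14 to 38.5. Reads outside the exons numbered 4 in ONC sample 3 and 0 in every other sample.

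Gap43 had an RPKM of 20.7, 17.3 and 19.1 in the sham samples and of 31.5, 29.3 and 26.5 in the ONC samples. The groups did not overlap, and the lowest ONC sample exceeded the highest sham sample. The means were 29.1 ± 2.51 in ONC and 19.0 ± 1.68 in sham (SD, n = 3), from 900 to 1044 exon reads in ONC and 543 to 622 in sham. The log2 fold change was 0.49 with a standard error of 0.10, and the edgeR adjusted p was 0.00585. The fold change of 1.41 had a 95% interval of 1.22 to 1.62, which holds the DEG threshold of 1.5, so the data do not place Gap43 on either side of it. The ratio of mean RPKM was 1.53, larger because RPKM also divides by the reads on introns. By log2 fold change, Gap43 ranked 635 of 13670.

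Junction and intron reads gave less certain values for Gap43. Junction reads numbered 242, 277 and 213 in ONC and 146, 179 and 162 in sham, with a log2 fold change of 0.38 and a standard error of 0.16. The edgeR adjusted p was 0.303, so this readout did not pass the test. Reads in its introns numbered 17, 13 and 13 in ONC and 42, 18 and 31 in sham. Every ONC sample thus had fewer intron reads than every sham sample before scaling, but after TMM scaling of the intron reads the groups overlapped, at 2.04 to 3.58 CPM in ONC and 3.19 to 7.86 CPM in sham. Their log2 fold change was -1.03 with a standard error of 0.53 and an edgeR adjusted p of 0.342, where 2.24% of 13391 genes were called lower. The estimates for exon and intron reads of Gap43 thus had opposite signs.

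The exon share of Gap43 reads was 98.5 ± 0.132% in ONC and 95.2 ± 1.56% in sham (SD, n = 3), without overlap. The exact permutation p was 0.1, two-sided, the smallest that 3 samples against 3 can give. Over 12646 genes, 18.8% had a higher exon share in every ONC sample than in every sham sample, and the libraries as a whole differed in the same way, so the shift in Gap43 is read against that background.

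Basp1, also called CAP-23 or NAP-22, was the most abundant of the 5 genes per length. Its RPKM was 49.5, 42.9 and 44.0 in sham and 54.2, 54.7 and 51.4 in ONC, with means of 45.5 ± 3.55 and 53.4 ± 1.75 (SD, n = 3). In RPKM every ONC sample was above every sham sample. In TMM-scaled exon reads the groups overlapped, at 105 to 121 CPM (counts scaled to library size) in sham and 119 to 128 in ONC. The log2 fold change was 0.11 (standard error 0.07) and the fold change 1.08 with a 95% interval of 0.978 to 1.19, which excludes a 1.5-fold rise. The edgeR adjusted p was 0.438. When reads were divided by all reads on genes, as RPKM does, the log2 fold change was 0.23 and the adjusted p 0.0709, and that scaling moved the median of all genes from 0.00995 to 0.13.

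Intron reads of Basp1 numbered 27, 23 and 43 in ONC and 55, 35 and 98 in sham, which overlap. Their log2 fold change was -0.98 with a standard error of 0.40 and an edgeR adjusted p of 0.224. Its exon share was 98.8 ± 0.429% in ONC and 97.0 ± 1.49% in sham (SD, n = 3, exact permutation p 0.1, the smallest possible). The lowest ONC sample was at 98.3% and the highest sham sample at 98.2%. Such a separation was seen in 18.8% of 12646 genes. Junction reads numbered 278 to 328 in ONC and 189 to 282 in sham, with a log2 fold change of 0.11 and an edgeR adjusted p of 0.869.

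Marcks was the only one of the 5 genes with an estimate below 0 in exon reads. Its RPKM was 21.98, 25.1 and 21.1 in sham and 22.6, 21.7 and 20.4 in ONC, and the groups overlapped. The means were 22.7 ± 2.10 in sham and 21.6 ± 1.15 in ONC (SD, n = 3), from 2115 to 2514 and 2210 to 2399 exon reads. Its log2 fold change was -0.19 with a standard error of 0.07, and the edgeR adjusted p was 0.145. The fold change of 0.874 had a 95% interval of 0.790 to 0.967, which excludes a 1.5-fold change in either direction. Without ONC sample 1 the log2 fold change was -0.25 with an adjusted p of 0.0117, and with no filter on RPKM the adjusted p was 0.0879, so the call rests on these choices. Junction reads numbered 70 to 86 in ONC and 76 to 86 in sham, with an adjusted p of 0.711, and intron reads were 6 or fewer per sample.

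Marcksl1, also called MLP or MacMARCKS, had the lowest mean level of the 5 in ONC. Its RPKM was 8.64, 9.88 and 8.22 in sham and 10.7, 11.6 and 11.4 in ONC, without overlap, with means of 8.91 ± 0.865 and 11.2 ± 0.435 (SD, n = 3). The groups also did not overlap in TMM-scaled reads, at 18.2 to 20.8 CPM in sham and 21.9 to 22.7 in ONC, as held in this direction for 11% of genes. Its log2 fold change was 0.21 with a standard error of 0.11, a fold change of 1.16 (95% interval 0.982 to 1.36), and the edgeR adjusted p was 0.363. Between 96.3 and 99.2% of its exon reads were unique, so a few were shared with other places in the genome. Junction reads numbered only 18 to 50 per sample, and their adjusted p was 0.928.

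**Figure D3:**
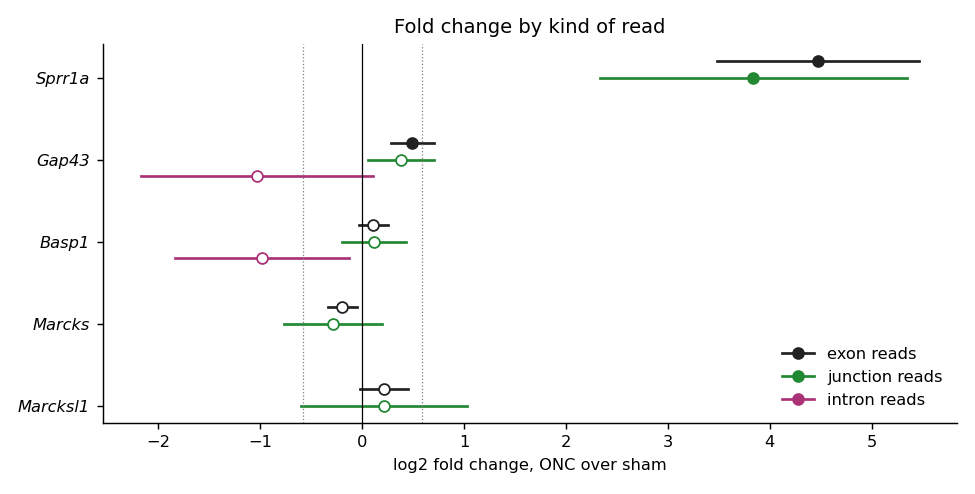
Log2 fold change, ONC over sham (x axis), of the 5 genes in exon, junction and intron reads, with 95% intervals from edgeR; filled points passed the adjusted p of 0.1, dotted lines mark a 1.5-fold change, and intron reads could be tested for Gap43 and Basp1. Sprr1a passed in exon and junction reads and Gap43 in exon reads alone.

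In the distribution of all genes, the 5 were far apart. Of all genes tested, 99.9% had a lower log2 fold change than Sprr1a, 95.4% a lower one than Gap43, 85.1% a lower one than Marcksl1, 71.9% a lower one than Basp1 and 14.9% a lower one than Marcks. The median over all genes was 0.00995. By mean RPKM, Sprr1a moved from rank 12679 in sham to rank 5060 in ONC, and Gap43 from 2890 to 1988. Basp1 was at rank 1032 and then 932, while Marcks went from 2371 to 2789 and Marcksl1 from 5846 to 5244.

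**Figure D4:**
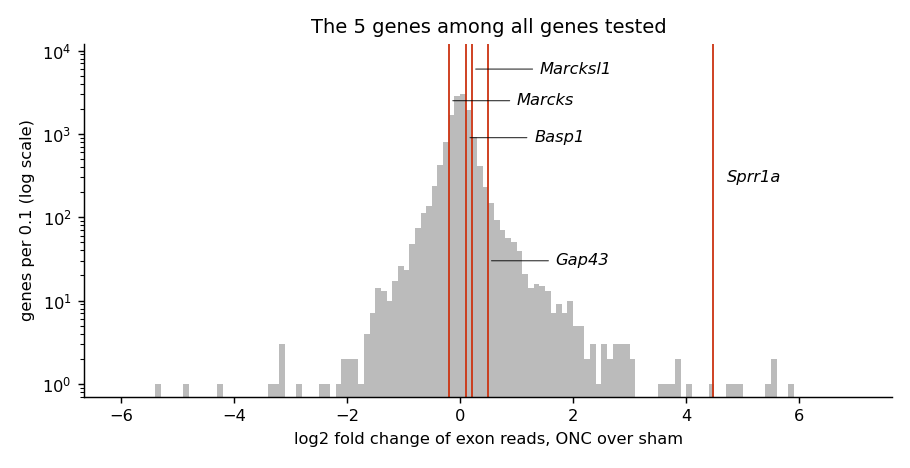
Number of genes (y axis, log scale) by log2 fold change of exon reads, ONC over sham (x axis, bins of 0.1), over the 13670 genes tested, with red lines at the 5 growth cone genes. Sprr1a lies in the far right tail at 4.47, Gap43 on the right slope at 0.49, and the other 3 within the centre.

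Ratios between 2 of the genes within a sample do not depend on the scaling between samples. In sham the order of levels per length was Basp1, Marcks, Gap43, Marcksl1 and Sprr1a, and the RPKM ranges of Marcks and Gap43 did not overlap. In ONC the order was Basp1, Gap43, Marcks, Sprr1a and Marcksl1, with overlapping ranges for Sprr1a and Marcksl1. Gap43 and Marcks thus changed places. The ratio of Gap43 to Marcks was 0.940, 0.690 and 0.905 in the sham samples and 1.39, 1.35 and 1.30 in the ONC samples. Their log2 ratio was higher in ONC by 0.68, without overlap.

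Of the 10 pairs, 6 could be tested, since Sprr1a was at 0 in sham sample 2. By exact permutation tests, 4 of the 6 had the smallest possible p of 0.1 (0.15 after Benjamini-Hochberg adjustment over 6 pairs), so none could pass at this sample size. The 6 pairs were formed from 4 genes and are not independent. The share of other gene pairs without overlap was not computed. In ONC the log2 ratio of Gap43 to Basp1 was higher by 0.38 and that of Basp1 to Marcks by 0.31. The ratio of Marcks to Marcksl1 was even across the sham samples, at 2.54, 2.54 and 2.56, and was 2.11, 1.88 and 1.79 in ONC, a log2 difference of -0.41. The ratios of Gap43 to Marcksl1 and of Basp1 to Marcksl1 overlapped between groups, with exact permutation p of 0.2 and 0.5. Sprr1a was at 0.153, 0 and 0.0189 of the Marcksl1 level in sham and at 1.10, 1.08 and 0.958 in ONC.

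**Figure D5:**
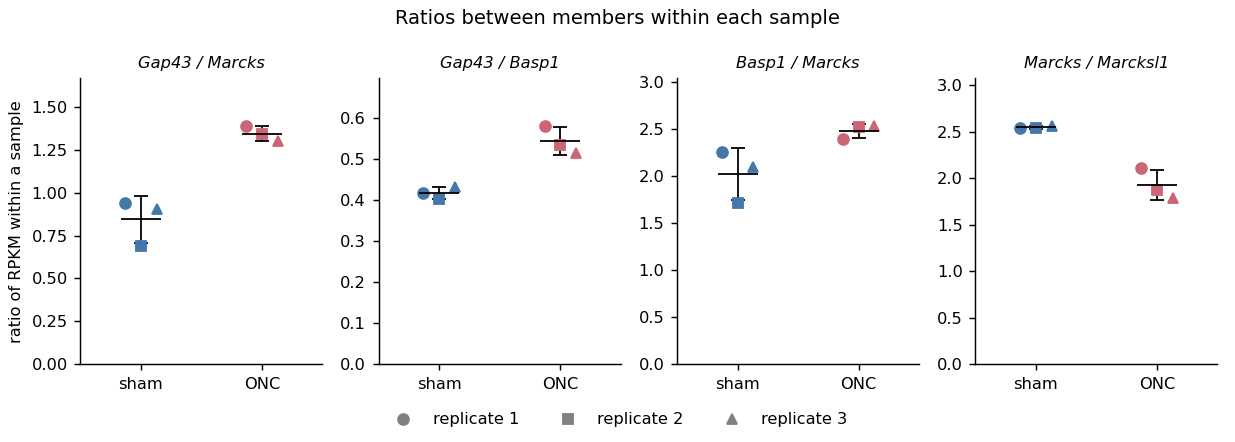
Ratio of the RPKM of 2 genes within each sample (y axes, from 0) for the 4 of 6 tested pairs whose sham (blue) and ONC (red) samples do not overlap, with the mean and SD in black. The pairs are not independent, and the share of other gene pairs without overlap was not computed. Gap43 relative to Marcks goes from below 1 in every sham sample to above 1 in every ONC sample.

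Summed over the 5 genes, RPKM was 127 ± 5.67 in ONC and 96.6 ± 4.96 in sham (SD, n = 3, exact permutation p 0.1, the smallest possible). Groups without overlap, ONC above sham, were seen in RPKM for 25.4% of all genes tested. With gene reads as the divisor, the median log2 fold change of all genes was 0.13, against 0.00995 with TMM. The total includes Basp1, Marcks and Marcksl1, which did not pass the edgeR test, so it does not show a rise of each gene. Basp1 made up 45.1 to 48.5% of this sum in sham and 41.4 to 42.7% in ONC. Sprr1a made up at most 1.29% in sham and 9.02 to 9.61% in ONC.

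The surroundings of these genes in the retina were described with lists of genes. Over all 13670 genes tested, 2.38% were called higher and 3.72% lower. At an unadjusted p under 0.05, 1057 were higher and 1229 lower. Of 30 genes for relatives with an IQ motif, calmodulin, protein kinase C, palmitoyl- and myristoyltransferases and enzymes of phosphoinositide metabolism, edgeR called 0 higher and 5 lower, with 0 higher and 8 lower at an unadjusted p under 0.05. The median log2 fold change was -0.058, against 0.00995 for all genes. Nrgn (neurogranin), which shares the calmodulin-binding IQ motif with Gap43, fell from an RPKM of 6.43 ± 0.393 to 3.44 ± 0.339 (SD, n = 3), or by 1.03 on the log2 scale (edgeR adjusted p 0.00122). Plcb1, a phospholipase C that splits phosphoinositides, fell by 0.71 on the log2 scale (edgeR adjusted p 0.000395). Calm3, a calmodulin gene, fell by 0.24 (edgeR adjusted p 0.0113). The other 2 genes called lower were Pcp4l1 (-0.21, an IQ motif protein) and the palmitoyltransferase Zdhhc5 (-0.23). The ONC and sham samples of each overlapped in RPKM.

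Of 50 other growth cone genes tested, edgeR called 0 higher and 4 lower, where 2.38% and 3.72% of all genes were called. At an unadjusted p under 0.05, 2 of the 50 were higher and 12 lower, against 1057 and 1229 of all 13670 genes. The median log2 fold change of the 50 genes was -0.039. Dpysl2 and Dpysl5, collapsin response mediator proteins that act in axon guidance, fell by 0.54 and 0.46 on the log2 scale (edgeR adjusted p 0.0081 and 0.00738). The RPKM of Dpysl2 was 17.7, 17.5 and 16.6 in sham and 16.4, 11.4 and 10.9 in ONC, so ONC sample 1 lay near the sham samples. Tln2 (talin 2, a link between integrins and actin) fell by 0.42 (edgeR adjusted p 0.00137). Alcam, an adhesion molecule of axons, had a log2 fold change of -0.43 with an adjusted p of 0.0871. The actins Actb and Actg1 had log2 fold changes of -0.21 and -0.15 and did not pass, with adjusted p of 0.123 and 0.175. Map1b and Sept7 were not analysed here.

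Of 29 other regeneration-associated genes tested, 12 were called higher and 1 lower, and 9 were DEGs higher in ONC. Over all genes tested, these shares were 2.38%, 3.72% and 0.827%. This list was drawn up with earlier results of these data known, so its count is no independent evidence of a direction. The median log2 fold change was 0.27. Mmp12 rose by 4.06 on the log2 scale (standard error 0.41), Ecel1 by 3.89 (0.26), the neuropeptide Gal (galanin) by 2.91 (0.42) and the transcription factor Sox11 by 2.45 (0.18), with edgeR adjusted p of 2.74e-06, 1.67e-08, 0.000221 and 4.59e-08. Sprr1a, at 4.47, had a larger estimate than each gene of this list, and its interval of fold change (11.2 to 44.0) holds the fold changes of Mmp12 (16.7) and Ecel1 (14.8). Gap43, at 0.49, lay above the median of the list. Tubb3, a neuronal tubulin and also a ganglion cell marker, fell by 0.75 (edgeR adjusted p 2.36e-06).

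Many markers of ganglion cells and of microglia differed between the same groups. Over all genes tested, 2.38% were called higher and 3.72% lower. Of 16 ganglion cell markers, 11 fell and 1 rose, with a median log2 fold change of -0.63, and their summed RPKM was 586 to 617 in sham and 448 to 472 in ONC. They ran from Pou4f2, a transcription factor of RGCs (-1.39, edgeR adjusted p 0.000103), to Slc17a6, the vesicular glutamate transporter (0.26, adjusted p 0.0525). Gap43 therefore rose in samples in which most RGC markers fell, and in whole retina fewer cells of a type and less RNA per cell cannot be told apart. Of 12 microglia markers, 6 were called higher, and their summed RPKM was 32.8 to 37.3 in sham and 50.6 to 57.3 in ONC. The count was 1 to 5 when 1 sample was left out. Log2 fold changes ran from -0.32 for Aif1 (IBA1, adjusted p 0.845) to 1.497 for Cd68, a lysosomal protein of phagocytes (edgeR adjusted p 0.0912). The part of these cell types in the differences of the 5 genes was not tested.

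Among markers of Müller glia and astrocytes, photoreceptors and optic nerve glia, only photoreceptor markers were called. Of 9 Müller glia and astrocyte markers, edgeR called 0. At an unadjusted p under 0.05, 2 of the 9 were higher and 1 lower, where 16.7% of all genes tested had such a p. These markers ran from Glul (glutamine synthetase, -0.13, edgeR adjusted p 0.206) to Gfap (0.36, adjusted p 0.126). Of 12 photoreceptor markers, 3 were called higher, where 2.38% of all genes tested were. When reads were divided by all reads on genes, 6 of the 12 were called higher. Their log2 fold changes ran from Opn1mw, a cone opsin (-0.20, edgeR adjusted p 0.241), to Sag (arrestin, 0.39, edgeR adjusted p 2.14e-05). Of 11 optic nerve glia markers, 4 were tested and 0 were called by edgeR, with 0 at an unadjusted p under 0.05. The smallest log2 fold change was that of Mbp, a myelin protein (-0.17, adjusted p 0.39), and Mobp was at 0 in all samples.

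For each of the 5 genes, the 3 genes with the most similar levels over the 6 samples were listed by Pearson's r of log2 CPM, as a description. With only 6 samples in 2 groups, many genes reach a high r, and all values share the same libraries and scaling. For Sprr1a, among 11975 genes, they were Mmp12 (r = 0.999), Yipf3 (0.995) and the ubiquitin gene Ubb (0.994). Mmp12 and Sprr1a were both lowest in sham sample 2 and highest in ONC sample 2. For Gap43, among 11608 genes, they were Ift74 (0.996), the apoptosis gene Bcl2l11 (0.994) and Fndc4 (0.991). Bcl2l11 had a log2 fold change of 0.42 (edgeR adjusted p 0.037), close to that of Gap43. The nearest were Ypel5, Apeh and Plk1s1 for Basp1 (0.979 to 0.981), Gng7, Fdft1 and Helz for Marcks (0.990 to 0.991) and Marveld3, Spty2d1 and Uck1 for Marcksl1 (0.990 to 0.996).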

How the data were processed

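The authors sequenced the pooled RNA on an Illumina HiSeq2000, used CLC Genomics Workbench for mapping, and deposited raw counts of reads per gene for every sample (exons, whole gene, exon-exon junctions, all and unique). The authors also deposited RPKM values, which divide exon reads by exon length and by all reads on genes. The authors name mm9, whereas the positions in the tables equal GRCm38 for all 5 genes, so no mm9 coordinates were used. Whether counting used strand is not given in the sources used here. The authors' own comparison columns were not used.

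Intron reads were computed as gene reads minus exon reads. Counts were tested with edgeR 4.0.16 in R 4.3.3 (TMM, glmQLFit, glmQLFTest, condition as the only term), after a filter of mean RPKM above 0.3 in a group for exon and junction reads (13670 genes) and filterByExpr for intron reads (13391 genes). p-values were adjusted over all genes of each fit. The standard error is the log2 fold change divided by the square root of the F statistic. The procedure was tested on simulated data. Ratios, shares and sums were compared by exact permutation tests, two-sided. The exact 95% intervals of summed reads and the floor of a count of 0 cover counting error only. The 95% intervals of edgeR fold changes come from this standard error and also include the spread between pools. Python 3.11.15, numpy 2.4.6, pandas 2.3.3, scipy 1.17.1 and matplotlib 3.10.9 were used.

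The 5 genes and the lists were chosen with earlier results of these data known. From each list at most 4 genes were named, those of largest absolute log2 fold change among genes called with a mean RPKM above 1 and samples without overlap. From marker lists the largest, the smallest and the genes at 0 were named, and some items are not reported here. Named outside this rule, after their values were seen, were Atf3, Actb, Actg1, Alcam, Cryaa, Pcp4l1, Tubb3 and Zdhhc5. Also outside it, Lor was named as the only cornified envelope gene that passed the filter. Sprr1b, Sprr3 and Sprr4 were named as the nearest neighbours of Sprr1a. Replicate numbers shared by the groups come from the labels alone. Alternatives were other scalings, filters and tools (DESeq2 1.42.0, limma 3.58.1 on log2 RPKM with a pseudocount), unique reads, a replicate block and leaving out each sample.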

Additional observations from a re-analysis of the deposited data

How the results depend on the processing

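Sprr1a and Gap43 kept their direction and their call in exon reads under all 18 alternatives, and Marcksl1 stayed under the threshold in all of them. The log2 fold change without 1 sample ranged from 3.87 to 6.97 for Sprr1a and from 0.41 to 0.55 for Gap43. Basp1 passed only when reads were divided by all reads on genes (0.23, adjusted p 0.0709), a scaling that shifts the median of all genes. Marcks passed with no filter on RPKM (-0.19), and without 1 sample it ranged from -0.25 to -0.14. In junction reads, leaving out 1 sample gave -0.0551 to 0.25 for Basp1 and -0.0469 to 0.38 for Marcksl1, both without a call. Same-numbered samples did not deviate together (correlations of -0.0469, -0.0384 and -0.00528), and with the replicate number as a block Sprr1a was 4.61 and Gap43 0.49, with no call of the 5 genes changed.

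The 833 genes called in exon reads became 1730 when divided by all reads on genes, 255 with limma on log2(RPKM + 0.1), 515 at an adjusted p under 0.05, and 371 to 2031 without 1 sample. The 361 called in intron reads became 1297 with the exon scaling, 1108 with no filter, 762 with DESeq2, and 0 to 913 without 1 sample, beside 2304 at an unadjusted p under 0.05 with all samples. The 373 called in junction reads became 184 to 774 without 1 sample. Of the IQ motif relatives and partners, 2 were called lower when divided by all reads on genes, 3 with the replicate block and 2 to 8 without 1 sample, against 5. Of the other growth cone genes, 5 were called higher when divided by all reads on genes, and without 1 sample 0 to 1 were called higher and 3 to 13 lower. Of the regeneration-associated genes, 1 to 3 were called lower without 1 sample. The largest of these counts in exon and junction reads came without ONC sample 1. The cause was not tested.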
